A study of Mus musculus with 6 samples.

Results

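The thin filament of the smooth muscle cell was followed through 10 genes: the smooth muscle actins Acta2 and Actg2, the cytoplasmic actins Actb and Actg1, the tropomyosins Tpm1, Tpm2, Tpm3 and Tpm4, caldesmon (Cald1) and leiomodin-1 (Lmod1). They were taken by symbol from the deposited tables, each symbol matched 1 row, and they are 10 of the 25939 genes listed. RNA came from vascular smooth muscle cells cultured from mouse aorta, sequenced as 3 libraries from cells exposed to trimethylamine N-oxide (TMAO, a metabolite derived from gut bacterial trimethylamine) for 48 h and 3 libraries from control cells. No source used here states the strain, age or sex of the mice, what the control medium held, or the TMAO dose. Nothing in the labels says whether the 3 libraries of a group came from separate animals or cultures, so each p-value rests on the spread among these 6 libraries alone, which may be technical.

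Thin filaments are polymers of actin with tropomyosin wound along them. In contractile smooth muscle, alpha actin (Acta2) dominates, caldesmon holds back the interaction of actin with myosin, and leiomodin starts new filaments. Cultured smooth muscle cells are known to lose contractile gene expression and to keep a cytoskeleton of cytoplasmic actins. Genes of both kinds are controlled by serum response factor (SRF), which binds the CArG box, and its partners of the myocardin family, some of which sense the pool of actin monomers.

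The 4 actin genes code for nearly the same protein, so the bases that tell their reads apart are shown here for the first 75 coding bases, where smooth muscle and cytoplasmic actins differ most in their known protein sequence. Capitals mark bases that differ from the aligned base of Actb, or have no partner in it, and the sequences are from GENCODE M21 transcripts on mm10.
Acta2: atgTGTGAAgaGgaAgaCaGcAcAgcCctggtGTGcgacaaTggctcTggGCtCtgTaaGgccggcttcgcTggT
Actg2: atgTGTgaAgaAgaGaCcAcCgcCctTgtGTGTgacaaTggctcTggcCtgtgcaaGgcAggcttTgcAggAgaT
Actb: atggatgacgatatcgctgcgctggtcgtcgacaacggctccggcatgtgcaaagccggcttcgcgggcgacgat
Actg1: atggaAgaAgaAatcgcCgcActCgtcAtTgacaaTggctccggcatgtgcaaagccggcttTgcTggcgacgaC

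In this stretch Acta2 carried 25 such bases, Actg2 24 and Actg1 12. Over the whole coding sequence Actb and Actg1 shared 88.6% of aligned bases and Acta2 and Actg2 84.4%, whereas pairs of 1 smooth muscle and 1 cytoplasmic actin shared 82.0% to 83.3%. The tropomyosins were less alike, with 69.4% (Tpm3 and Tpm4) to 76.5% (Tpm1 and Tpm3) shared bases between their longest coding sequences.

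The smooth muscle label was only partly borne out by marker genes. Of 9 smooth muscle markers, 3 had a mean of at least 1 FPKM (the authors' unit, which scales the fragments of a gene by its exon length and by the size of the library): Myl9, Smtn and Des. The smooth muscle myosin gene Myh11 averaged 0.0915 FPKM in TMAO and 0.0978 FPKM in Control, and the contractile genes Cnn1, Tagln, Mylk and Synpo2 and the SRF cofactor gene Myocd were also below 1 FPKM. Of 6 fibroblast markers 5 reached 1 FPKM, as did 3 of 6 macrophage markers, 1 of 6 endothelial, 1 of 4 pericyte, 0 of 4 epithelial and 0 of 3 striated muscle markers. A further 4 striated muscle markers (Myod1, Myog, Ckm and Myh6) matched no listed gene symbol. The summed fibroblast markers, mostly Col1a1, ranged from 210.5 to 228.9 FPKM in TMAO and from 232 to 263.8 FPKM in Control. The endothelial markers, almost all Emcn, summed to 12.5 to 13.1 FPKM in TMAO and 15.5 to 16.8 FPKM in Control, and the smooth muscle markers, mostly Myl9, to 101.2 to 105.5 FPKM in TMAO and 106.3 to 108.1 FPKM in Control. These 3 sums were lower in every TMAO library than in any Control library, as were 6.23% of all single genes tested. Single markers differed in direction: the means were 163 FPKM in TMAO and 185 FPKM in Control for Col1a1, but 21.06 FPKM in TMAO and 20.3 FPKM in Control for Dcn, 7.29 FPKM in TMAO and 6.94 FPKM in Control for Dpt, and 1.53 FPKM in TMAO and 1.11 FPKM in Control for Des. The sums of macrophage (73.5 to 82.0 FPKM in TMAO, 76.3 to 94.2 FPKM in Control), pericyte (2.70 to 3.80 FPKM in TMAO, 2.47 to 3.24 FPKM in Control), striated muscle and epithelial markers overlapped. Mitochondrial genes took 6.36% to 6.65% of reads in TMAO and 7.23% to 7.84% in Control. The part of these differences in the results on the thin filament was not tested. In bulk RNA, fewer cells of a type and less RNA per cell cannot be told apart. The FPKM values implied totals of 14991252 to 16806728 reads per library.

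Cytoplasmic actin dominated the actin transcripts. Actb was the most abundant of the 10 genes at 1176 to 1276 FPKM over the 6 libraries, followed by Actg1 at 544.6 to 605.5 FPKM, Acta2 at 476 to 493 FPKM and Tpm4 at 303 to 318 FPKM. Tpm3 (129.8 to 139.7 FPKM), Tpm2 (109.4 to 119.0 FPKM), Cald1 (71.9 to 82.1 FPKM) and Tpm1 (75.1 to 78.9 FPKM) came next. Actg2 stood at 14.8 to 17.8 FPKM and Lmod1 at 1.84 to 2.44 FPKM. No 2 neighbours in this order had overlapping ranges except Cald1 and Tpm1, whose means were within a ratio of 1.01. The spread of libraries does not cover the exon lengths by which FPKM divides, 12041 bases for Cald1 and 6085 for Tpm3. By reads recovered from FPKM, Cald1 was above Tpm3 in TMAO 1 (16338 and 13845). Acta2 was thus abundant in libraries in which Myh11 did not exceed 0.110 FPKM.

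**Figure D1:**
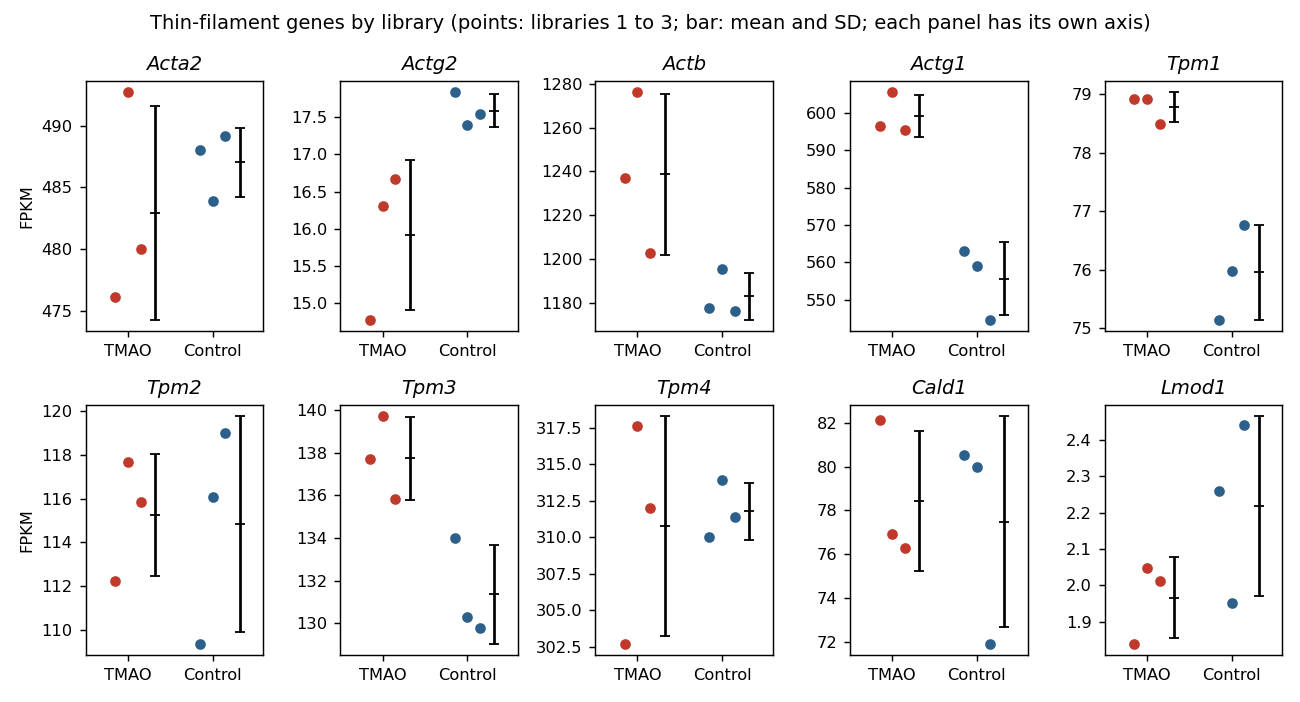
FPKM of each of the 10 thin-filament genes in the 3 TMAO and 3 Control libraries; points are libraries, bars show mean and SD, and every panel has its own axis, which does not start at 0. The TMAO points lie above all Control points for Actb, Actg1, Tpm1 and Tpm3 and below them for Actg2.

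After TMAO the differences were small, and 0 of the 10 genes passed limma's test at an adjusted p of 0.05. Over all 11062 genes tested, 20 passed (0.181%), 8 of them higher (0.0723%) and 12 lower (0.108%). With quantile normalization 7 were higher and 18 lower. All 10 thin-filament genes met the filter of 1 FPKM in at least 3 libraries. At an unadjusted p under 0.05, 1 of the 10 was higher (Actg1) and 1 lower (Actg2), where 8.61% and 4.48% of all tested genes were. With voom on reads recovered from the FPKM values, 0 of the 10 passed as well. The TMAO libraries lay wholly above the Control libraries for 4 of the 10 genes and wholly below for 1, where 12.4% and 6.23% of all tested genes did so. The median log2 fold change was 0.01 over the 10 genes, 6 of them positive, and 0.02 over all tested genes. With median-ratio size factors it was -0.03 over the 10 genes, 4 of them positive, and -0.0086 over all tested genes.

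Among the cytoplasmic actins, Actg1, the gamma actin of the cytoskeleton (ENSMUSG00000062825, chromosome 11, 120345690 to 120348542, minus strand of mm10), had the smallest p of the 10. It stood at 596.5, 605.5 and 595.6 FPKM in TMAO and at 563.1, 559.1 and 544.6 FPKM in Control. Every TMAO library was above every Control library, by more than the range within either group. The means were 599 ± 5.50 FPKM in TMAO and 556 ± 9.74 FPKM in Control (SD, n = 3 each), with a log2 fold change of 0.11 ± 0.039 (SE), a 95% interval of 0.02 to 0.19 and a limma adjusted p = 0.272. This adjusted p ranged from 0.172 to 0.668 over 14 alternative settings. The log2 fold change was 0.07 with quantile normalization and also with median-ratio size factors, and limma's unadjusted p of 0.0174 became 0.0755 and 0.251 under these, 0.0672 with the replicate block, 0.057 without TMAO replicate 3 and 0.0726 without Control replicate 3. Actb (ENSMUSG00000029580, chromosome 5, 142903115 to 142906754, minus strand), the beta actin often used as a reference transcript, stood at 1237, 1276 and 1203 FPKM in TMAO and at 1178, 1195 and 1176 FPKM in Control. The groups did not overlap, but TMAO 3 and Control 2 were only a few FPKM apart. Its log2 fold change was 0.07 ± 0.040 with an interval of -0.02 to 0.16 and a limma adjusted p = 0.535. With median-ratio size factors it was 0.03. The ratio of Actg1 to Actb was 0.482, 0.475 and 0.495 in TMAO and 0.478, 0.468 and 0.463 in Control, and the groups overlapped.

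Many reads of Actg1 could belong to its copies. Of the distinct 50-base windows in its annotated transcripts, 37.4% also occur in a transcript of another gene, against 9.12% for Actb, 0.326% for Acta2 and 0 for Actg2. With 100-base windows the shares were 29.9% for Actg1, 0.644% for Actb, 0 for Acta2 and 0 for Actg2, so they depend on the window length. The processed pseudogene Gm12715 alone shares 973 of the 50-base windows of Actg1. It stood at 85.8, 83.9 and 80.6 FPKM in TMAO and at 83.8, 70.8 and 64.4 FPKM in Control (limma adjusted p = 0.386). How reads were divided between Actg1 and Gm12715 is thus uncertain. Summing Actg1 with Gm12715 and a further pseudogene, Gm8399, gave 686 ± 6.44 FPKM in TMAO and 631 ± 19.1 FPKM in Control, a difference of 8.60% beside 7.84% for Actg1 alone. The groups of sums did not overlap. Each FPKM is scaled by the exon length of its own gene, so such a sum does not pool the reads and does not settle how they were divided. Gm23419 and Mir6935, annotated on the same strand, cover 5.53% of the exon bases of Actg1.

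Of the smooth muscle actins, Acta2 (ENSMUSG00000035783, chromosome 19, 34241090 to 34255590, minus strand), the alpha actin of the vascular wall, was at 476, 493 and 480.0 FPKM in TMAO and at 488.0, 483.9 and 489.2 FPKM in Control. TMAO 2 was the highest of all 6 libraries and TMAO 1 the lowest, so the groups overlapped. The 95% interval of its log2 fold change, -0.10 to 0.07, allows a difference of -6.54% to 5.19% on the scale of the test (limma adjusted p = 0.928). Actg2 (ENSMUSG00000059430, chromosome 6, 83512905 to 83536265, minus strand), the gamma actin best known from visceral smooth muscle, was at 14.8, 16.3 and 16.7 FPKM in TMAO and at 17.8, 17.4 and 17.5 FPKM in Control. All TMAO libraries were below all Control libraries, and TMAO 1 was the lowest. The log2 fold change was -0.14 ± 0.057, with an interval of -0.27 to -0.01 and a limma adjusted p = 0.344 (0.279 to 0.621 over the alternatives). Without TMAO replicate 1 it was -0.09. The limma unadjusted p of 0.0359 was then 0.141, and it was 0.0556 to 0.0863 without any 1 Control library, 0.0592 with the replicate block and 0.0918 with voom. These values rest on 380, 405 and 389 reads in TMAO and 417, 408 and 459 in Control, and counting alone gives an error of 5.06% of a library's value in TMAO and 4.83% in Control.

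**Figure D2:**
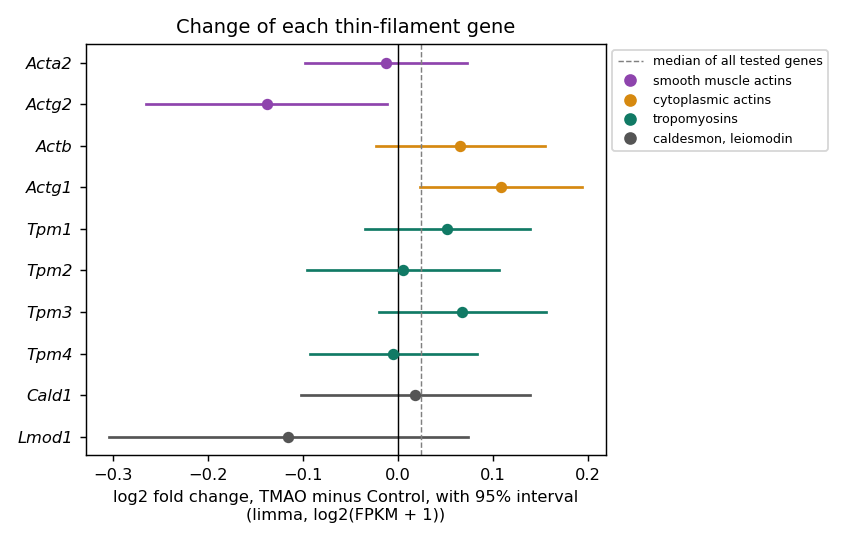
Log2 fold change of each gene, TMAO minus Control, as points with 95% intervals from limma on log2(FPKM + 1); colours mark the protein classes and the dashed line the median of all tested genes. The plotted interval excludes 0 for Actg1 (0.02 to 0.19) and Actg2 (-0.27 to -0.01), neither of which passed after adjustment, and for Actg1 it includes 0 with quantile normalization or median-ratio size factors.

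Set against each other within a library, which removes the scale of the library, the smooth muscle actins made up a smaller share of actin transcripts after TMAO. Acta2 and Actg2 together took 21.1%, 21.3% and 21.6% of the summed FPKM of the 4 actins in TMAO and 22.5%, 22.2% and 22.7% in Control. The groups did not overlap, with means of 21.4% ± 0.264 in TMAO and 22.5% ± 0.265 in Control (SD, n = 3 each), a difference of -1.15 percentage points. No p is given for a share over chosen genes. The level of the share depends on the exon lengths used, in GENCODE M21 2196 bases for Acta2, 1557 for Actg2, 2679 for Actb and 2658 for Actg1. It also depends on how reads were divided between Actg1 and its copies. Acta2 over Actb was 0.385, 0.386 and 0.399 in TMAO and 0.414, 0.405 and 0.416 in Control, and Acta2 over Actg1 was 0.798, 0.814 and 0.806 in TMAO and 0.867, 0.865 and 0.898 in Control. Neither ratio overlapped between the groups. Of all single genes tested, 18.7% did not overlap, and no such rate was computed for shares or ratios. The share and the ratios reuse the same 4 genes, so they are not separate results. On the deposited scale, the smooth muscle actins summed to 499 ± 9.26 FPKM in TMAO and 505 ± 2.93 FPKM in Control, whereas the cytoplasmic actins summed to 1838 ± 41.7 FPKM in TMAO and 1739 ± 17.0 FPKM in Control. Which class differs more depends on that scale: with median-ratio size factors the log2 fold changes were -0.05 for Acta2 and -0.18 for Actg2, against 0.03 for Actb and 0.07 for Actg1. Acta2 over Actg2 was 30.4 ± 1.73 in TMAO and 27.7 ± 0.287 in Control, with every TMAO library above every Control library.

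**Figure D3:**
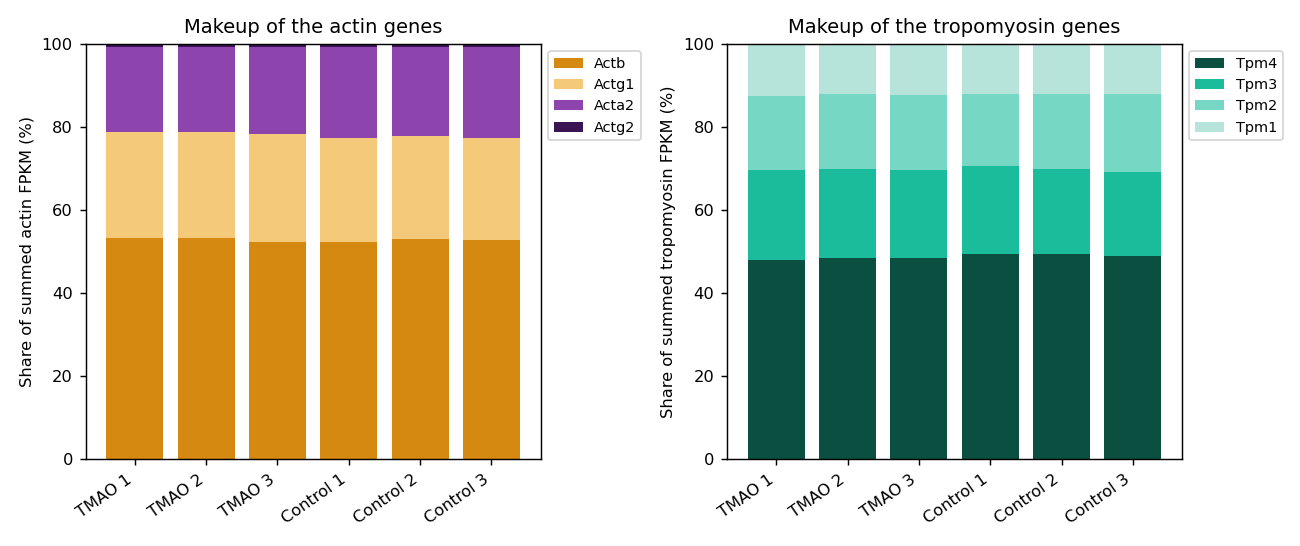
Share of each gene in the summed FPKM of the 4 actins (left) and of the 4 tropomyosins (right), as stacked bars from 0 to 100% for each TMAO and Control library. The smooth muscle actins Acta2 and Actg2 take 21.1% to 21.6% in TMAO and 22.2% to 22.7% in Control. Tpm4 takes the largest share of tropomyosin FPKM in every library.

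Tpm4 and Tpm3, which give mainly cytoskeletal tropomyosins in cells that are not muscle, were the 2 highest tropomyosin genes by FPKM. The exon bases in GENCODE M21 were 2203 for Tpm4, 6085 for Tpm3, 6485 for Tpm1 and 2909 for Tpm2. By reads recovered from FPKM, TMAO 1 had 13845 for Tpm3, about 11020 for Tpm4, 8458 for Tpm1 and 5395 for Tpm2. The order of these genes and their shares thus depend on the exon lengths used. Tpm3 (ENSMUSG00000027940, chromosome 3, 90072649 to 90100902, plus strand) stood at 137.7, 139.7 and 135.8 FPKM in TMAO and at 134.0, 130.3 and 129.8 FPKM in Control. The groups did not overlap, and the log2 fold change was 0.07 ± 0.040 (interval -0.02 to 0.16, limma adjusted p = 0.510), or 0.03 with median-ratio size factors. Of its 100-base windows 15.8% recur elsewhere. Of its 50-base windows 23.2% do, all of them in the retrogene Tpm3-rs7, which was listed at 38.9 ± 0.907 FPKM in TMAO and 37.2 ± 1.34 FPKM in Control. Tpm3 and Tpm3-rs7 summed to 177 ± 2.65 FPKM in TMAO and 169 ± 2.97 FPKM in Control, again without overlap. As for Actg1, a sum of FPKM does not pool the reads. Tpm4 (ENSMUSG00000031799, chromosome 8, 72134975 to 72153142, plus strand) stood at 303, 318 and 312 FPKM in TMAO and at 310.0, 314 and 311 FPKM in Control, with TMAO 1 lowest and TMAO 2 highest of the 6. Its log2 fold change of -0.0049 ± 0.040 (interval -0.09 to 0.08, limma adjusted p = 0.974) was 0.01 without TMAO replicate 1. Of its 50-base windows 11.7% recur in Gm7809, and of its 100-base windows 7.37%. Gm26586 on the opposite strand covers 6.08% of the exon bases of Tpm4.

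Tpm1 and Tpm2 give the tropomyosins of contractile smooth muscle as well as cytoskeletal forms, by splicing that values per gene cannot resolve. GENCODE M21 lists 18 complete coding transcripts of 9 coding lengths for Tpm1. Tpm1 (ENSMUSG00000032366, chromosome 9, 67022590 to 67049406, minus strand) stood at 78.9, 78.9 and 78.5 FPKM in TMAO and at 75.1, 75.97 and 76.8 FPKM in Control. The groups did not overlap, and the 3 TMAO libraries differed by an SD of 0.318% of their mean, less than the 1.11% that counting alone gives, so this closeness is no measure of precision. The log2 fold change was 0.05 ± 0.039 (interval -0.03 to 0.14, limma adjusted p = 0.622), or 0.01 with median-ratio size factors. Tpm2 (ENSMUSG00000028464, chromosome 4, 43514711 to 43523765, minus strand) averaged 115 ± 2.77 FPKM in TMAO and 115 ± 4.95 FPKM in Control. Control 1, at 109.4 FPKM, was the lowest library and Control 3, at 119.0 FPKM, the highest. Its log2 fold change of 0.01 (interval -0.10 to 0.11, limma adjusted p = 0.973) became -0.03 with median-ratio size factors or without Control replicate 1, and -0.01 when TMAO replicate 2 was left out.

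Within the tropomyosins, Tpm4 took 48.4% ± 0.374 of the summed FPKM in TMAO and 49.2% ± 0.255 in Control, without overlap. Tpm1 took 12.3% ± 0.217 in TMAO and 11.98% ± 0.0608 in Control. Every TMAO library was above every Control library, but TMAO 2 (12.07%) was barely above Control 3 (12.05%). Shares of the same sum do not vary separately, and 18.7% of all single genes tested did not overlap. Tpm3, at 21.4% ± 0.332 in TMAO and 20.7% ± 0.519 in Control, overlapped between the groups, and so did Tpm2, at 17.9% ± 0.144 in TMAO and 18.1% ± 0.654 in Control. Tpm1 and Tpm2 together took 30.2% ± 0.116 in TMAO and 30.1% ± 0.696 in Control, an overlap of the groups, with a difference of 0.105 percentage points that was -0.264 without Control replicate 1. The ratio of summed actins to summed tropomyosins was 3.68, 3.66 and 3.57 in TMAO and 3.574, 3.55 and 3.50 in Control, where TMAO 3 was barely above Control 1.

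Caldesmon and leiomodin-1 did not separate the groups. Cald1 (ENSMUSG00000029761, chromosome 6, 34598500 to 34775473, plus strand), whose heavy smooth muscle and light forms are splice products of the same gene, was at 82.1, 76.9 and 76.3 FPKM in TMAO and at 80.5, 80.0 and 71.9 FPKM in Control. Its libraries spread by 4.07% of the mean in TMAO and 6.21% in Control, where counting gives 0.818% in TMAO and 0.829% in Control. The log2 fold change of 0.02 (interval -0.10 to 0.14, limma adjusted p = 0.922) became -0.03 without Control replicate 3, -0.01 without TMAO replicate 1 and -0.02 with median-ratio size factors. Lmod1 (ENSMUSG00000048096, chromosome 1, 135324807 to 135368065, plus strand) was at 1.84, 2.05 and 2.01 FPKM in TMAO and at 2.26, 1.95 and 2.44 FPKM in Control, from 116 to 162 reads per library. Control 2 lay among the TMAO libraries. The log2 fold change was -0.12 ± 0.085 with an interval of -0.30 to 0.07 (limma adjusted p = 0.616), the widest interval of the 10 genes. It was -0.07 without Control replicate 3 and -0.18 without Control replicate 2.

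Because SRF binds CArG boxes, the 250 bases before each RefSeq start (GRCm38.p6) were searched for them. The box reads the same on both strands, so both are covered. In all, 8 of the 10 genes matched, with 10 windows, and Actb and Actg2 were not matched. A full CArG box lay in 1 of the 10 windows, before Actg1, and in 1.47% of 32841 windows genome-wide. A box with 1 G or C in its centre of A and T bases, which no full box can be, lay in 3 of the 10 windows and in 7.24% of all windows. Each is shown with 10 bases on either side and the box in capitals, since these are the only boxes of either kind found in the 10 windows.
Actg1: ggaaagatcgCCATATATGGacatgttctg
Acta2, distal: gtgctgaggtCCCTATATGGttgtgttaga
Acta2, proximal: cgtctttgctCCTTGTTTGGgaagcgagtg
Tpm3, upstream start: gctagaaagaCCATGTTAGGaagaagaggt
Tpm3, downstream start: aaccccgcccCCTTTACTGGactaaggaaa

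The Actg1 stretch is chr11:120348566-120348595 (minus strand) and its box begins at base -90, counted from the start. The Acta2 stretches are chr19:34255438-34255467 and chr19:34255388-34255417 (minus strand), with boxes beginning at bases -84 and -34 from the RefSeq start, and both fall in the first exon of Acta2 as GENCODE M21 draws it. The Tpm3 stretches are chr3:90072575-90072604 and chr3:90079454-90079483 (plus strand), with boxes beginning at bases -66 and -57. A match of letters is a description and shows no binding.

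The machinery around the filament was read from 8 lists of actin regulators, 91 genes in all. Among them Actc1, Actbl2 and Lmod2 matched no listed gene symbol. Of the 73 that were tested, 0 passed limma's test over all genes, and 0 passed with voom on recovered reads. At an unadjusted p under 0.05, 2 were higher and 2 lower, where 8.61% of all tested genes were higher and 4.48% lower. The groups did not overlap for 14 genes above and 3 below, where 18.7% of all tested genes did not overlap. Of 15 regulators listed below the filter and not tested, the TMAO libraries were wholly above Control for 1 and wholly below for 2, where 6.65% of all genes below the filter were wholly above and 2.03% wholly below. The median log2 fold change was 0.04, beside 0.02 over all tested genes.

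The list for the Arp2/3 complex, which nucleates branched actin networks, had 10 tested genes of 11. It includes cortactin (Cttn), which binds the complex and is not a subunit. The log2 fold change was positive for all 10 (median 0.06), beside 6638 of 11062 genes tested. With median-ratio size factors 7 of the 10 were positive, at a median of 0.02. The TMAO libraries were wholly above Control for 5 of them, as for 12.4% of all tested genes. Arpc1a had 32.4 ± 0.958 FPKM in TMAO and 30.2 ± 0.971 FPKM in Control (log2 fold change 0.10, limma adjusted p = 0.404), without overlap. Arpc2 had 350.4 ± 7.85 FPKM in TMAO and 333 ± 6.39 FPKM in Control (0.07, adjusted p = 0.495), also without overlap. Arpc5l had 16.9 ± 0.741 FPKM in TMAO and 15.4 ± 1.02 FPKM in Control (0.13, adjusted p = 0.418), and its groups overlapped.

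Among 15 tested nucleators and elongators, the formin gene Diaph3 had the smallest p of all the regulators, at 17.9, 17.2 and 17.7 FPKM in TMAO and 21.2, 20.97 and 18.6 FPKM in Control (log2 fold change -0.19 ± 0.060, limma adjusted p = 0.221). Every TMAO library was below every Control library. Its relative Diaph1 also lay wholly below (-0.11, limma adjusted p = 0.558), while Daam1 had 0.12 (adjusted p = 0.561) with overlapping groups.

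Of 12 tested genes for monomer binding and severing, gelsolin (Gsn), which cuts and caps filaments, stood at 466, 404 and 443 FPKM in TMAO and at 458, 506 and 493 FPKM in Control. The groups overlapped through Control 1, and its log2 fold change stood at -0.15 ± 0.059 (limma adjusted p = 0.308). The monomer-sequestering thymosin gene Tmsb10 had 1276 ± 32.1 FPKM in TMAO and 1202 ± 41.6 FPKM in Control without overlap (0.09, limma adjusted p = 0.424), and Dstn, which codes for the severing protein destrin, had -0.07 (adjusted p = 0.543). Of the 12 genes 8 had a positive log2 fold change, and 4 with median-ratio size factors.

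Calponins and transgelins stabilise filaments. Of the 3 tested, Tagln2 had 94.1 ± 1.30 FPKM in TMAO and 88.2 ± 1.96 FPKM in Control (log2 fold change 0.09, limma adjusted p = 0.367), without overlap. Cnn3 had 150.5 ± 3.64 FPKM in TMAO and 143.8 ± 2.69 FPKM in Control (0.06, adjusted p = 0.548), also without overlap. Cnn2 had 106.0 ± 1.64 FPKM in TMAO and 104.6 ± 2.46 FPKM in Control (0.02, adjusted p = 0.896), with overlap. The median log2 fold change of these 3 genes was 0.06, and 0.03 with median-ratio size factors, where 2 of the 3 were positive. The smooth muscle members Tagln, at 0.766 ± 0.141 FPKM in TMAO and 0.851 ± 0.0960 FPKM in Control, and Cnn1, at 0.618 ± 0.0900 FPKM in TMAO and 0.702 ± 0.251 FPKM in Control, did not meet the filter. Of the other actins, skeletal Acta1 stood at 0.138 ± 0.0492 FPKM in TMAO and 0.0934 ± 0.0868 FPKM in Control and was not tested either.

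Among 11 tested cross-linkers, the alpha-actinin gene Actn4 had 37.7 ± 1.34 FPKM in TMAO and 40.1 ± 2.26 FPKM in Control (log2 fold change -0.09, limma adjusted p = 0.533). Its groups did not overlap, but TMAO 2 (38.50 FPKM) was barely below Control 3 (38.56 FPKM). The filamin gene Flna had 0.10 (adjusted p = 0.548) and the spectrin gene Sptan1 0.08 (adjusted p = 0.595). Of 8 tested capping and tropomodulin genes, Tmod3, which caps pointed ends, had 20.8 ± 0.658 FPKM in TMAO and 19.8 ± 0.510 FPKM in Control without overlap (0.07, adjusted p = 0.589), Capg had 0.06 (adjusted p = 0.601) and Capza2 -0.06 (adjusted p = 0.619).

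Of 14 tested regulators of SRF and its cofactors, Rhoa, the GTPase that drives actin polymerisation, stood at 118.4, 120.2 and 117.3 FPKM in TMAO and at 112.6, 113.5 and 110.4 FPKM in Control (log2 fold change 0.08, limma adjusted p = 0.419). Scai, which codes for a repressor of the SRF cofactor Mrtfa, had 1.69 ± 0.332 FPKM in TMAO and 1.26 ± 0.0398 FPKM in Control (0.24, adjusted p = 0.341), and the SRF partner Elk4 had 3.66 ± 0.144 FPKM in TMAO and 3.17 ± 0.362 FPKM in Control (0.16, adjusted p = 0.446). The TMAO libraries were wholly above Control for each of these 3 genes, which were named for having the smallest p in the list. Of the 14 tested, 4 lay wholly above and 0 wholly below, where 12.4% and 6.23% of all tested genes did so.

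**Figure D4:**
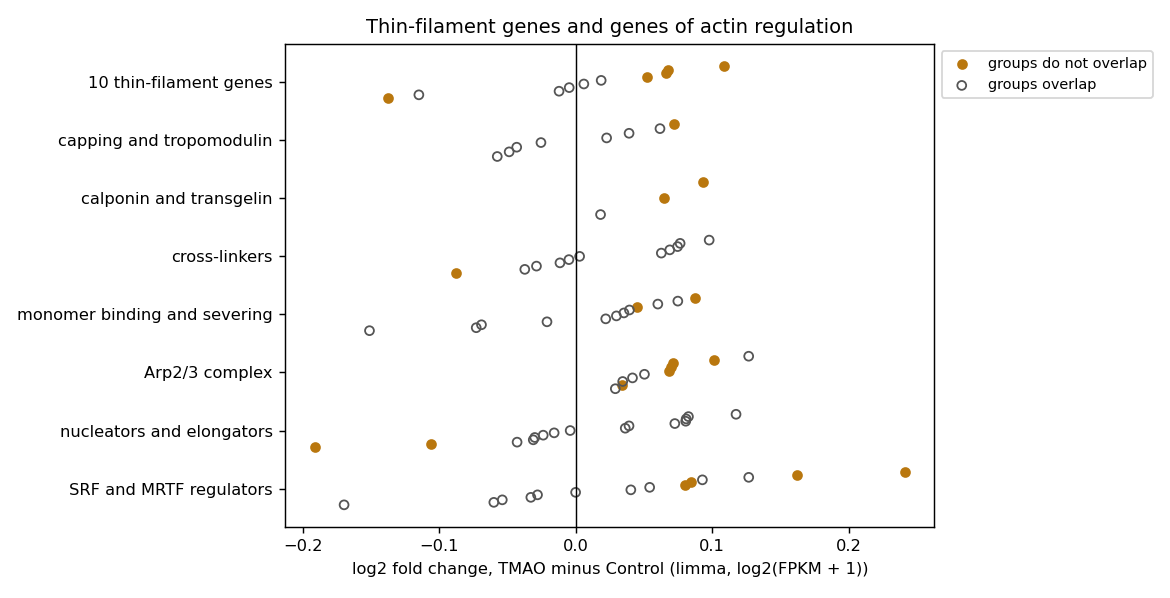
Log2 fold change, TMAO minus Control, of the 10 thin-filament genes and of each tested actin regulator, by list; filled points are genes whose TMAO and Control libraries do not overlap and open points are genes whose libraries do. All 10 genes of the Arp2/3 list, which includes Cttn, lie to the right of 0 here (7 of 10 with median-ratio size factors). Diaph3, at -0.19, is farthest to the left.

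The genes whose profile over the 6 libraries was nearest to that of an actin were found by the root mean square distance of log2(FPKM + 1), centred on each gene's mean, among 3746 named genes with a mean of at least 10 FPKM, predicted gene models left out. For Acta2 these were Nono, Cct4 and Morf4l1, at 0.00704 to 0.0109 where the median gene was at 0.0683. For Actg2 they were Gtf2e2, Ccnb1 and C1galt1c1 (0.0137 to 0.0192), for Actb they were Babam1, Tmed10 and Kpna1 (0.0121 to 0.0160), and for Actg1 they were Cyb5r3, Thoc5 and Tm2d3 (0.0109 to 0.0146). Over 6 libraries such nearness is a description.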

How the data were processed

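The authors deposited 1 table per library of FPKM values per gene, per the file headers (PKM in that of Control 1). Per the submitters' processing notes, Trimmomatic, HISAT2, Cufflinks, HTSeq and mm10 were used. No source used here states the annotation release or the strand setting. Libraries were grouped by title.

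Exon lengths from GENCODE M21 and 1 total per library turned FPKM into whole reads (within 0.01) in all 6 libraries for 98.5% of the 25885 annotated genes. Tpm4 was the exception among the 10 genes. Intervals from reads cover counting error only.

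limma 3.58.1 (R 4.3.3), trended and robust, was fitted on log2(FPKM + 1) to the 11062 genes that reached 1 FPKM in 3 or more libraries, with Benjamini-Hochberg adjustment. Fold changes on this scale understate low genes. The script was tested on simulated data with larger changes than those of the thin-filament genes, so that test does not cover differences of their size. From each list of regulators the 3 tested genes with the smallest p were named, and for each actin the 3 genes of nearest profile. The thin-filament genes and lists were chosen with earlier results of these data known. Alternatives were 2 normalizations, 2 filters, 0.1 as the pseudocount, moderation without the robust option, a replicate block, voom on recovered reads and each library left out. Libraries of a group differed by more than counting noise, so none was counted as the same library deposited again. Sequences were read with Python 3.11.15 and Biopython 1.88.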

Additional observations from a re-analysis of the deposited data

How the results depend on the processing

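The count of 0 thin-filament genes past the threshold held under all 14 alternatives, and so did the count of 0 actin regulators. The 20 genes called over the whole table became 0 with no filter, 50 with a mean of at least 5 FPKM and 90 with voom on recovered reads, and between 11 (without Control replicate 3) and 58 (without TMAO replicate 2) when a library was left out, with 13 without TMAO replicate 1. The log2 fold change changed sign for 3 of the 10 genes, all near 0. Tpm2 had -0.0016 with quantile normalization and -0.034 with median-ratio size factors, -0.0092 without TMAO replicate 2 and -0.028 without Control replicate 1, the lowest of the values with a library left out, of which the highest was 0.032. Cald1 had -0.021 with median-ratio size factors, -0.014 without TMAO replicate 1 and -0.033 without Control replicate 3, where the highest with a library left out was 0.047. Tpm4 had -0.021 to 0.014 with a library left out, the highest being 0.014 without TMAO replicate 1 and 3.12e-05 without Control replicate 2. The cause was not tested. The smooth muscle share of actin FPKM differed by -1.29 to -1.02 percentage points when a library was left out and by -1.18 with quantile normalization.

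Same-numbered libraries did not deviate together (correlations over genes of -0.09, -0.10 and 0.06). Deviations from means of 3 libraries cannot settle whether the numbers pair them, and the labels do not say. With the replicate number as a block 22 genes passed over the whole table and 0 of the 10, and the paired difference in the smooth muscle share was -1.15 ± 0.236 percentage points (SD of 3). Depth limits Lmod1 and Actg2 most, at 116 to 162 and 380 to 459 reads per library.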

Other observations

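Of the 15 actin regulators below the filter, 3 had groups that did not overlap, and they are named after their values were seen. For genes below the filter as a whole, 6.65% had TMAO libraries wholly above Control and 2.03% wholly below. Tagln3, a transgelin known from neurons, stood at 0.342, 0.404 and 0.377 FPKM in TMAO and at 0.591, 0.696 and 0.720 FPKM in Control. Myocd, which codes for the smooth muscle cofactor of SRF, stood at 0.518, 0.439 and 0.478 FPKM in TMAO and at 0.674, 0.610 and 0.602 FPKM in Control. Scin, a relative of gelsolin, was wholly above, at 0.0404, 0.0627 and 0.0222 FPKM in TMAO and at 0.0222, 0 and 0.0198 FPKM in Control. These values are near the floor, as 1 read in 1 kilobase is 0.06671 FPKM in TMAO 3 and 0.06660 FPKM in Control 1. TMAO 3 (0.02224 FPKM) exceeded Control 1 (0.02221 FPKM) only by what library size gives, so Scin shows no real separation. None of the 3 was tested.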
